A study of Mus musculus with 18 samples.

Results

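The 10 genes described here are activity-dependent immediate early genes: Fos, Fosb, Junb, Egr1, Egr2, Egr3, Arc, Npas4, Nr4a1 and Dusp1. They were taken by symbol from the 18194 genes that the array measured with at least 1 probe set annotated to a single gene, and each was represented by its brightest such probe set by mean RMA value (RMA is a log2 summary of a probe set's signal). Together they have 12 probe sets, since Egr2 and Egr3 have 2 each. The study measured gene expression in the whole brain of mouse pups, male and female, at postnatal day 8. Lead-treated pups were injected with lead acetate (50 mg/kg) on postnatal days 7 and 8, with 2 injections a day spaced 4 h apart, and weight-matched control pups received saline on the same schedule. In each treatment there were 3 genotypes: Mt-KO (-/-), heterozygous (+/-) and wild-type (+/+), all on the C57BL/6J background, the knockout after at least 7 backcross generations. Mt-KO mice carry a knockout of metallothionein, a small protein that binds zinc, copper and toxic metals. The brain was collected 6 h after the final dose, following CO2 and cervical dislocation. RNA of 5 pups was pooled for each genotype and treatment and hybridised to 1 Affymetrix mouse expression array, so that 6 arrays were made and no combination was replicated. The pool, and not the pup, is the unit of every comparison, and the number of arrays limits the precision of all values.

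Immediate early genes are transcribed within minutes of synaptic activity, growth factors or stress, without the need for new protein synthesis. Calcium entry and kinase signalling activate factors that are already bound at their promoters, chiefly CREB at the cyclic AMP response element (CRE) and SRF with its partners at the CArG box. The transcripts are short-lived, and most of the encoded proteins are transcription factors that switch on a later set of effector genes, while others act at synapses or shut the signal down again. In the brain they are widely used as markers of recently active neurons.

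Promoter sequence was available in the RefSeq table (build GRCm38.p6) for 7 of the 10 genes. Egr1, Egr3 and Arc were not searched. A window of 300 bases, from 250 before to 50 after the transcription start, was searched on both strands. The core of the CRE, TGACG, lay in a window of all 7 genes, and in 23.0% of the 27025 genes with a window. The complete palindromic CRE, TGACGTCA, which contains the core on each strand, was found for 1 gene, Dusp1, and for 2.03% of genes. A CArG box was found for 1 gene, Egr2, and for 1.81% of genes. A site outside the window would be missed, so a gene without a match may still hold one further away. The AP-1 site TGANTCA was found in 0 of the 7 and in 8.97% of genes. An EGR site, GCGTGGGCG or GCGGGGGCG, was found for Fosb and Nr4a1, and for 3.93% of genes. The core of the metal response element, TGCACNC or TGCGCNC, through which metallothionein genes respond to metals, was found for Junb, Npas4, Nr4a1 and Dusp1, and for 28.2% of genes. These matches describe letters in a window and do not show that a factor binds there. The 250 bases before the start are given for 4 genes, 5′ to 3′ on the strand of the gene. Fos shows CRE cores, and Egr2 shows CRE cores and a CArG box. Npas4 and Dusp1 are the genes whose values in the lead pools are described most fully further on. Capitals mark CRE cores (TGACG, or CGTCA on the other strand), the complete CRE and the CArG box. Egr2 has 5 annotated windows, and 1 that holds both kinds of site is given.
Fos, chr12:85473640-85473889, plus strand: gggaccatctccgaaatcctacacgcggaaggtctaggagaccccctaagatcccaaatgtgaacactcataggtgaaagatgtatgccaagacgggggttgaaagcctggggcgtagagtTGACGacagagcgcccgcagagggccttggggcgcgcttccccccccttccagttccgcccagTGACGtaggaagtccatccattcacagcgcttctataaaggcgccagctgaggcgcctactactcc
Egr2, chr10:67537619-67537868, plus strand: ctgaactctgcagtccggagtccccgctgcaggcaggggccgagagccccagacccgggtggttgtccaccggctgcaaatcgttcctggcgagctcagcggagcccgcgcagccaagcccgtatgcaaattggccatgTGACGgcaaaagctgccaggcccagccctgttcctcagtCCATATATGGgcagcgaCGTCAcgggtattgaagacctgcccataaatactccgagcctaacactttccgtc
Npas4, chr19:4989972-4990221, minus strand: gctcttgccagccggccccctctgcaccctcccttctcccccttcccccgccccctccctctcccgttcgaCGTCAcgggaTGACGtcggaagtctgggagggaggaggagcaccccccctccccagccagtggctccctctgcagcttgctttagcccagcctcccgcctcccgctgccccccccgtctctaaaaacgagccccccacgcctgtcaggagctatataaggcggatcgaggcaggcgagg
Dusp1, chr17:26508473-26508722, minus strand: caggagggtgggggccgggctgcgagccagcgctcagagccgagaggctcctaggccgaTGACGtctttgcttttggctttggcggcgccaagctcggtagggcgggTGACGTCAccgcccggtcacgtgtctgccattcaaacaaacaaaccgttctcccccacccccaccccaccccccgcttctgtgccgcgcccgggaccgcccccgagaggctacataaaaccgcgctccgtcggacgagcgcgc

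Several facts of the arrays touch the comparisons. The median RMA value of the 10916 genes tested ranged from 10.87 in the wild-type lead pool to 11.05 in the wild-type saline pool. Lead minus saline, the median gene thus differed by 0.09, 0.15 and -0.18 in the Mt-KO, heterozygous and wild-type pairs (log2), and differences between single pools are given relative to this shift. Mt1, a metallothionein, measured 11.71 and 11.68 in the Mt-KO lead and saline pools, 12.87 and 12.45 in heterozygous pools, and 13.30 and 13.17 in wild-type pools, so the signal followed the labelled genotype. The labels do not say which part of the gene was altered. Sex-linked signal was uneven: the Y-linked gene Eif2s3y measured 11.16 in the Mt-KO lead pool and 6.50 in the Mt-KO saline pool, against 9.45 to 10.45 in the other 4 pools. Growth hormone, a pituitary transcript, reached 11.48 in heterozygous lead brain and lay at 9.29 to 9.83 elsewhere. A measure of RNA quality, the log2 excess of 3′ over 5′ Gapdh signal, was 0.54 to 0.82 in 5 pools and 1.19 in the pool of wild-type saline brains. Snap25 (13.63 to 14.01), Gfap (12.15 to 12.62) and Mbp (13.61 to 14.72), which mark neurons, astrocytes and oligodendrocytes, were bright in all 6 pools. The part of these differences in the results was not tested.

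None of the 10 genes differed between the lead and saline pools past the threshold, and none differed by 1.5-fold in any single pair of pools by RMA value. The largest lead coefficients were those of Junb, an AP-1 subunit, at -0.16, and of Dusp1, a phosphatase that switches off MAP kinases, and Fos, both at 0.15 (log2, 3 lead arrays against 3 saline arrays). Of the 10 genes, 6 lay among the upper 60% of genes by mean RMA value and were tested: Fos, Junb, Egr1, Egr3, Nr4a1 and Dusp1. The other 4, Fosb, Egr2, Npas4 and Arc, were dimmer, below the mean RMA value of 9.42 that bounded the genes tested, and their values come from the same fit on all 18194 genes. With limma's moderated test, genotype as a block and Benjamini-Hochberg adjustment over all genes, 0 of the 6 genes tested passed for lead, where 0.119% of the 10916 genes passed. None of the 6 had an unadjusted p under 0.05, and neither did any of the 10 in the fit on all genes, which called 0.0% of all genes. The 95% confidence intervals of the 6 genes covered folds between 0.772 and 1.32, and those of the 4 dim genes folds between 0.766 and 1.18, on the RMA scale. These intervals use a spread that limma shares among genes of similar brightness. With each gene's own spread over the pools, which leaves 2 residual degrees of freedom, the intervals of the 6 genes widened to folds between 0.565 and 1.89, so larger changes than those measured are compatible with 3 pools a group.

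**Figure D1:**
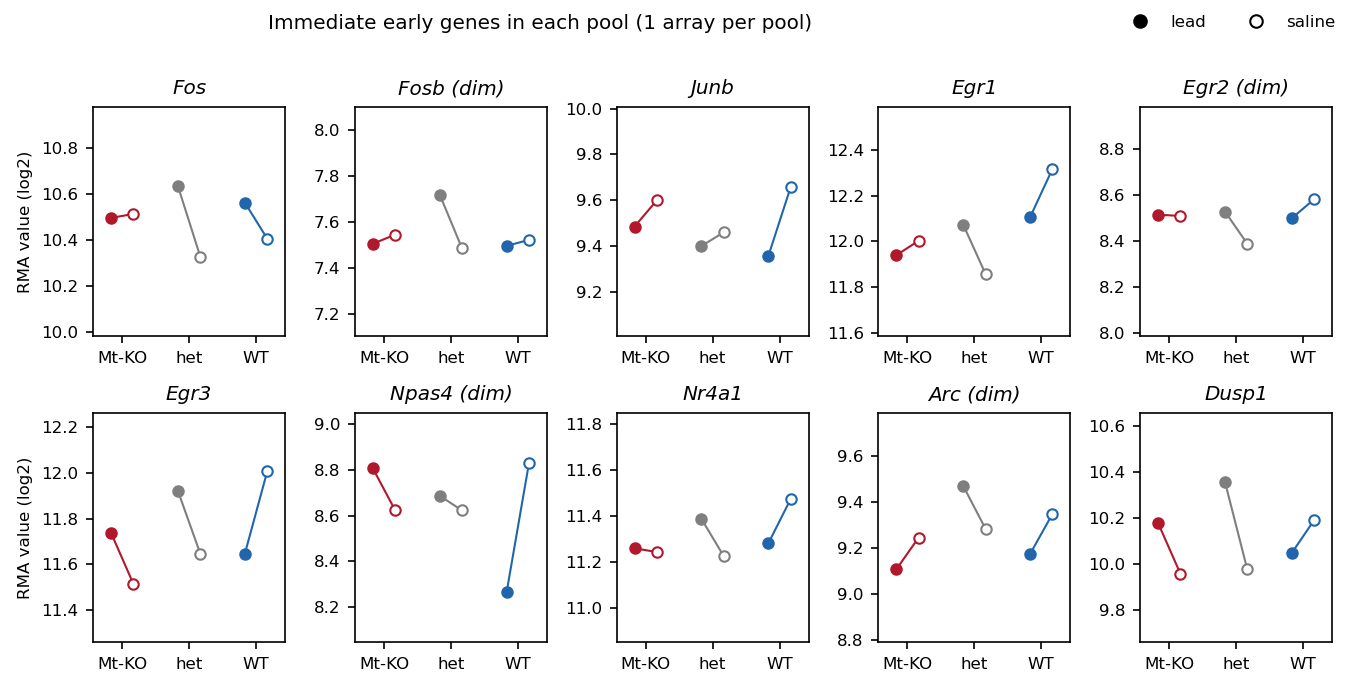
RMA value (log2, vertical axis) of each gene in the lead pool (filled) and saline pool (open) of the Mt-KO, heterozygous (het) and wild-type (WT) genotypes, 1 array per point. Every panel spans the same number of log2 units, dim marks genes below the brightness limit, and the widest separation is that of Npas4, 8.27 in the wild-type lead pool and 8.83 in the wild-type saline pool.

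Fos, Fosb and Junb encode subunits of AP-1, the dimeric transcription factor that Fos and Jun proteins form. Fos lies at chr12:85473890-85477274, Fosb at chr7:19302696-19310118 and Junb at chr8:84976909-84978748 (GRCm38.p6). Fos, whose promoter with 2 CRE cores is given above, measured 10.50, 10.63 and 10.56 in the Mt-KO, heterozygous and wild-type lead pools, against 10.51, 10.33 and 10.40 in the saline pools of the same genotypes. The lead pools were the higher ones in the heterozygous and wild-type brains, and the Mt-KO saline pool lay among them, so the groups overlapped. Relative to the median gene, Fos differed by -0.11, 0.16 and 0.34 in the Mt-KO, heterozygous and wild-type pairs. The lead coefficient was 0.15 (95% CI -0.10 to 0.40, limma adjusted p = 1).

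Fosb, a paralogue of Fos whose truncated form is known to accumulate under repeated stimulation, was dim. Its RMA values were 7.50, 7.72 and 7.49 in the Mt-KO, heterozygous and wild-type lead pools, against 7.54, 7.48 and 7.52 in the saline pools. A single pool, heterozygous lead, stood above the other 5, which lay between 7.48 and 7.54. Its lead coefficient was 0.06 (95% CI -0.13 to 0.24). Relative to the median gene, Fosb differed by -0.13, 0.08 and 0.16 in the Mt-KO, heterozygous and wild-type pairs. The direction depended on the summary, with -0.13 in the heterozygous pair by GC-RMA and -0.05 in the wild-type pair after quantile normalization.

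Junb, the Jun family member that often restrains c-Jun, measured 9.49, 9.40 and 9.36 in the Mt-KO, heterozygous and wild-type lead pools, against 9.60, 9.46 and 9.66 in the saline pools. Alone among the 10 genes it lay below the median gene with lead in all 3 pairs, by -0.21, -0.21 and -0.12, and after each array was centred on its median gene the 3 lead pools lay below the 3 saline pools. That pattern is common: 10.9% of the genes tested (8.93% of all genes) were below the median gene in all 3 pairs, and 3.77% (3.31% of all genes) had lead pools that lay wholly below the saline pools. The lead coefficient was -0.16 (95% CI -0.37 to 0.06, limma adjusted p = 1). The GC-RMA summary, which corrects for the base content of the probes, put Junb at 1.75 to 2.17 in all pools, close to its lower end, and gave relative differences of 0.03, -0.00 and -0.14 in the Mt-KO, heterozygous and wild-type pairs. With PLIER, a summary on an intensity scale, they were -0.02, 0.06 and -0.30, so the direction in the Mt-KO and heterozygous pairs depended on the summary.

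**Figure D2:**
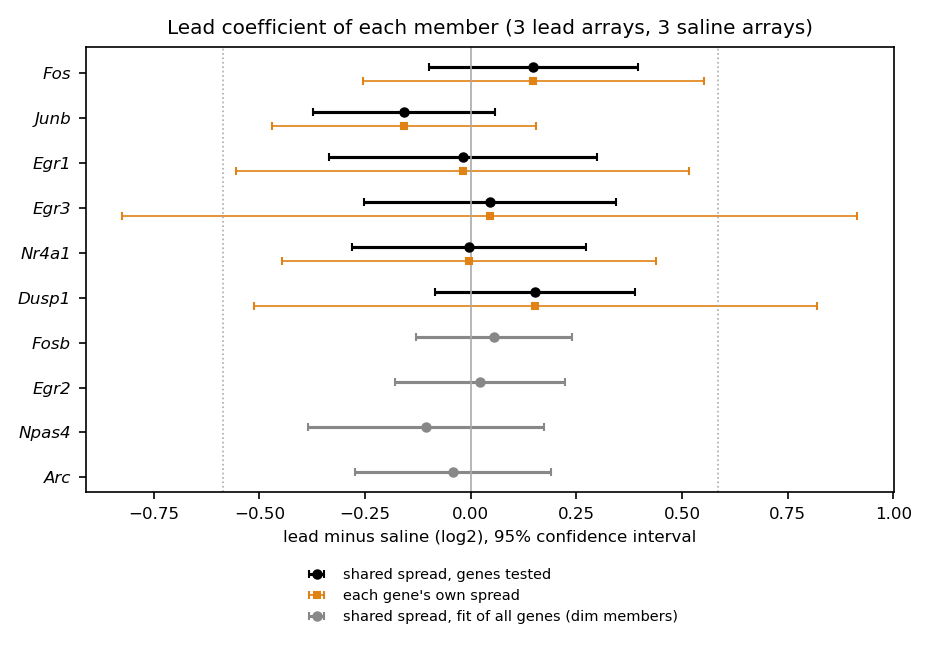
Lead coefficient (lead minus saline, log2, horizontal axis) of each gene with its 95% confidence interval, from limma's shared spread (black, genes tested, and grey, dim genes in the fit on all genes) and from each gene's own spread (orange). Dotted lines mark a 1.5-fold difference, and every interval includes 0.

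Egr1, Egr2 and Egr3 encode zinc finger factors that bind a shared GC-rich site and link the early response to synaptic plasticity, to myelination in the case of Egr2, and to muscle spindle development in the case of Egr3. Egr1 lies at chr18:34861207-34864956, Egr2 at chr10:67534469-67542188 and Egr3 at chr14:70077317-70082613. Egr1 measured 11.94, 12.07 and 12.11 in the Mt-KO, heterozygous and wild-type lead pools, against 12.003, 11.86 and 12.32 in the saline pools. The extremes were both saline pools, wild-type at the top and heterozygous at the bottom, and the lead pools lay between them. For lead the coefficient of Egr1 was -0.02 (95% CI -0.34 to 0.30, limma adjusted p = 1).

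Egr2 was dim and the flattest of the 10. It measured 8.52, 8.53 and 8.50 in the Mt-KO, heterozygous and wild-type lead pools, against 8.51, 8.39 and 8.58 in the saline pools. Centred on the median gene, its values spanned 0.15 over the 6 pools, a span that was smaller in only 7.23% of all genes. Its coefficient for lead was 0.02 (95% CI -0.18 to 0.22). Its second probe set lay at 6.29 to 6.45 in the lead pools and at 6.27 to 6.37 in the saline pools, also overlapping.

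Egr3 was measured by probe sets that did not move together. The brighter one read 11.74, 11.92 and 11.65 in the Mt-KO, heterozygous and wild-type lead pools, against 11.52, 11.65 and 12.01 in the saline pools. Lead exceeded saline in the Mt-KO and heterozygous pairs, by 0.13 and 0.12 relative to the median gene, and the wild-type pair differed by -0.17. With GC-RMA the differences were -0.06, 0.32 and 0.04 in the Mt-KO, heterozygous and wild-type pairs, so the direction in the Mt-KO and wild-type pairs depended on the summary. The other probe set read 9.55, 9.70 and 9.83 in the lead pools, against 9.73, 9.65 and 9.70 in the saline pools, with the lead pool higher in the heterozygous and wild-type pairs as deposited. GC-RMA put this dimmer probe set at 0.57 to 0.69 in all 6 pools, its lower end. The lead coefficient of the brighter probe set was 0.05 (95% CI -0.25 to 0.34, limma adjusted p = 1).

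Npas4, a neuronal transcription factor that responds nearly exclusively to calcium entry and organises inhibitory synapses, showed the widest spread of the 10. It lies at chr19:4984353-5003439, was dim, and measured 8.81, 8.69 and 8.27 in the Mt-KO, heterozygous and wild-type lead pools, against 8.62, 8.62 and 8.83 in the saline pools. The wild-type lead pool was the lowest of all 6, and the other 5 lay between 8.62 and 8.83. In the wild-type pair Npas4 differed by -0.56 between the lead and saline pools as deposited and by -0.38 relative to the median gene. GC-RMA gave -0.41 and PLIER -0.43, both relative to their own median gene, and quantile-normalized RMA values gave -0.57. The median is taken over the brighter genes, and dim genes did not share its shift in the wild-type pair, so the deposited and quantile-normalized differences stand beside the relative one for the dim genes. In the Mt-KO and heterozygous pairs the relative differences were 0.09 and -0.09. Over the 3 pairs the lead coefficient was -0.10 (95% CI -0.38 to 0.17, limma adjusted p = 1, fit on all genes). In bulk tissue, fewer cells that express a gene and less of its RNA per cell cannot be told apart.

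Nr4a1, an orphan nuclear receptor induced by activity and stress, lies at chr15:101253902-101274795. It measured 11.26, 11.39 and 11.28 in the Mt-KO, heterozygous and wild-type lead pools, against 11.24, 11.22 and 11.47 in the saline pools. All lead values fell between the highest and lowest saline values. Relative to the median gene it differed by -0.08, 0.01 and -0.01 in the Mt-KO, heterozygous and wild-type pairs, and the lead coefficient was -0.00 (95% CI -0.28 to 0.27, limma adjusted p = 1).

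Arc encodes a protein of postsynaptic dendrites that drives the removal of AMPA receptors, and it lies at chr15:74669081-74672570. It was dim and measured 9.11, 9.47 and 9.17 in the Mt-KO, heterozygous and wild-type lead pools, against 9.25, 9.28 and 9.35 in the saline pools. The lead pools held both the highest value, in heterozygous brain, and the lowest, in Mt-KO brain. The lead coefficient was -0.04 (95% CI -0.27 to 0.19), and relative to the median gene the Mt-KO pair differed by -0.23, with 0.04 and 0.01 in the heterozygous and wild-type pairs. The wild-type difference was -0.17 as deposited and -0.14 after quantile normalization.

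Dusp1, at chr17:26505591-26508472, encodes the phosphatase that ends MAP kinase signalling, and its promoter holds the only complete CRE among the 7 genes searched. It measured 10.18, 10.36 and 10.05 in the Mt-KO, heterozygous and wild-type lead pools, against 9.96, 9.98 and 10.19 in the saline pools. As deposited the wild-type pair ran against the others. Relative to the median gene all 3 pairs were higher with lead, by 0.13, 0.23 and 0.04 in the Mt-KO, heterozygous and wild-type pairs, and the centred lead pools lay wholly above the saline pools. Among the genes tested, 11.5% were higher in all 3 pairs (7.98% of all genes) and 4.79% had centred lead pools wholly above the saline pools (3.3% of all genes). Dusp1 alone of the 10 had that pattern, and its wild-type difference was -0.06 with GC-RMA and -0.04 after quantile normalization. The lead coefficient was 0.15 (95% CI -0.08 to 0.39, limma adjusted p = 1). Without the wild-type pair it was 0.30 (limma adjusted p = 0.0102), in a fit that called 2632 of the 10916 genes against 13 with all arrays. Egr3 also passed in that fit, at 0.25 (limma adjusted p = 0.0131). Leaving out either wild-type array alone gave the same coefficients, because the genotype block then fits the remaining wild-type array exactly. It is therefore no separate check.

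**Figure D3:**
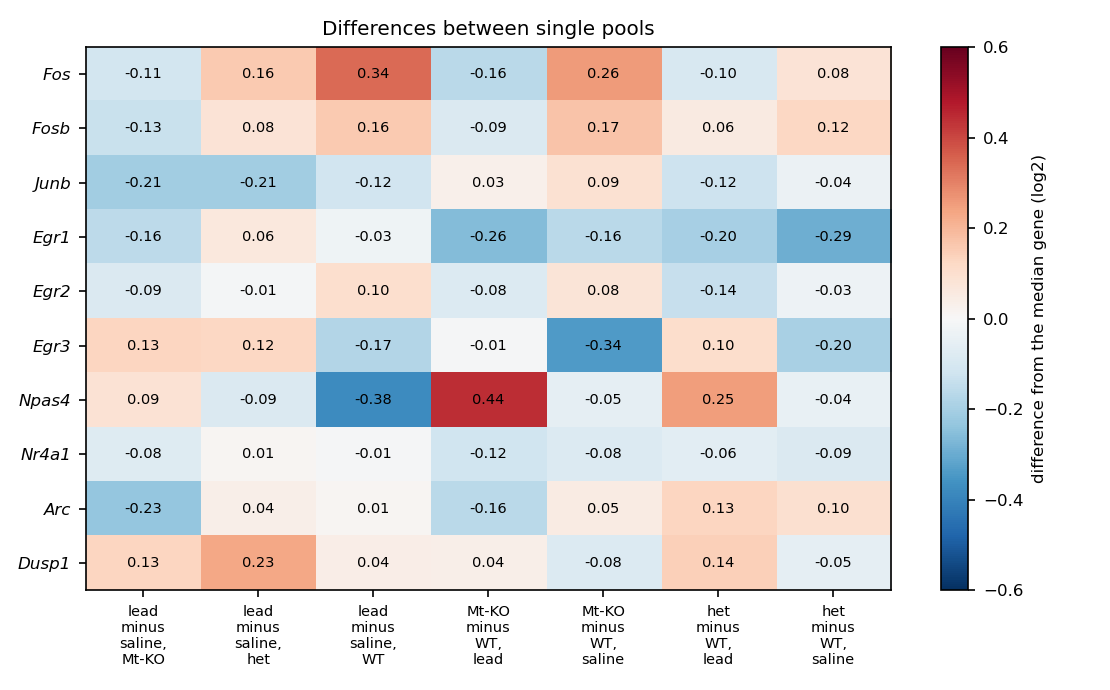
Difference between single pools (log2, with the median gene's own difference taken off, colour and printed value) for each gene, in the 3 lead minus saline pairs on the left and the 4 genotype pairs on the right (het, heterozygous, and WT, wild-type). The values run between -0.38 and 0.44, both for Npas4, and no cell reaches the 1.5-fold limit.

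Within single pairs, 0 of the 10 genes differed by at least 1.5-fold from the median gene by RMA value. In the Mt-KO pair 0.0769% of all 18194 genes were that much higher with lead and 0.275% that much lower. In the heterozygous pair these shares were 0.0715% and 0.379%, and in the wild-type pair 2.21% and 0.346%. At a lower limit of 0.32 log2 units, Fos was higher and Npas4 lower in the wild-type lead pool than in the wild-type saline pool, Npas4 was higher in the Mt-KO than in the wild-type lead pool, and Egr3 was lower in the Mt-KO than in the wild-type saline pool. For Fos this held for the RMA value relative to the median gene. As deposited its wild-type difference was 0.16, and it was 0.25 with GC-RMA, 0.10 with PLIER and 0.30 after quantile normalization. The share of all genes past this lower limit was not counted, so the genes named are not set apart from the general spread. A difference between 2 single arrays has no replicate check, and no test was made of it.

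Metallothionein genotype was compared with 2 arrays against 2, with treatment as a block. No gene of the 10 differed past the threshold, in either direction. For Mt-KO against wild-type, 0 of the 6 tested passed where 0.431% of the genes tested did, and for heterozygous against wild-type 0 passed where 0.119% did, with none of the 6 at an unadjusted p under 0.05 in limma. The 4 dim genes did not pass either, in a fit on all genes that called 0.033% for Mt-KO and 0.0% for the heterozygote. Egr1 had the lowest coefficients, -0.24 in Mt-KO (95% CI -0.63 to 0.15) and -0.24 in heterozygous brain (95% CI -0.63 to 0.14), both with a limma adjusted p of 1. The 2 wild-type pools, lead with 12.11 and saline with 12.32, gave the highest Egr1 values of the 6. The Mt-KO minus wild-type difference of Egr1 was -0.26 among lead pools and -0.16 among saline pools, relative to the median gene.

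Egr3, set against its wild-type value and the median gene, was at -0.01 in the Mt-KO lead pool and at -0.34 in the Mt-KO saline pool (log2). Over both treatments its coefficient was -0.20 in Mt-KO (95% CI -0.57 to 0.17) and -0.04 in heterozygous brain (95% CI -0.41 to 0.32), each with a limma adjusted p of 1. Npas4 had a Mt-KO coefficient of 0.17 (95% CI -0.18 to 0.51, limma adjusted p = 1, fit on all genes). Its Mt-KO minus wild-type difference was 0.44 among lead pools and -0.05 among saline pools, and its heterozygous minus wild-type difference was 0.25 and -0.04, relative to the median gene. With 1 wild-type array left out, the genotype contrast rests on 1 wild-type pool, whose spread enters no p-value, so only coefficients are given. Without the wild-type lead array the Mt-KO coefficient was -0.38 for Egr1 and -0.50 for Egr3, and the heterozygous coefficients were -0.39 and -0.35. Without the wild-type saline array Egr1 was at -0.10 in Mt-KO and -0.10 in heterozygous brain. The heterozygous coefficient of Egr3 was then 0.26, in the opposite direction. The Mt-KO coefficient of Npas4 was then 0.51, against -0.18 without the wild-type lead array (fit on all genes). The size of the Egr1 coefficients and the direction of those of Egr3 and Npas4 thus turned on which wild-type array was kept. With RMA the 1.5-fold limit was passed by 0 of the 10 genes in these 4 pairs. Of all genes, 0.533% were that much higher and 0.775% that much lower in the Mt-KO than in the wild-type lead pool, and 1.4% and 1.05% in the saline pools. In the heterozygous pools these shares were 0.198% and 0.313% with lead and 1.99% and 0.181% with saline. With GC-RMA, Npas4 passed the limit in the lead pools, Mt-KO minus wild-type (0.78 relative to the median gene). Egr1 passed it in the saline pools, heterozygous minus wild-type (-0.60). The share of all genes past it was not counted with GC-RMA.

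Whether the lead difference depended on genotype was tested as a change of the lead coefficient per intact metallothionein allele, taken as linear. The median coefficient of all genes tested was -0.15 per allele, beside the median-gene shift of -0.18 in the wild-type pair. Of the 6 genes tested 0 passed, where 3.77% of the genes tested did. Among the 6, only 1, Egr3, had an unadjusted p under 0.05 in limma, as did 2194 of all 10916 genes tested. The Egr3 coefficient was -0.29 per allele (95% CI -0.55 to -0.03, limma adjusted p = 0.190). With each array centred on its median gene it was -0.15, and it was -0.07 both with GC-RMA and over the mean of the probe sets. With the other probe set it was 0.16, so its direction depended on the probe set. Without the Mt-KO lead array the brighter probe set gave -0.52 and passed (limma adjusted p = 0.0441), with 1029 of the 10916 genes against 412 with all arrays. Npas4 had a coefficient of -0.37 per allele (95% CI -0.58 to -0.16, limma adjusted p = 0.0870) in the fit on all genes, where 0.506% of genes passed. In that fit Npas4 and Egr3 were the 2 of the 10 at an unadjusted p under 0.05, as were 3293 of all 18194 genes. The Npas4 coefficient was -0.23 with centred arrays, -0.38 after quantile normalization, -0.42 with GC-RMA and -0.50 with PLIER. Its limma adjusted p lay between 0.0870 and 0.445 over these and the other summaries. Its low value was that of the wild-type lead pool alone. Leaving out 1 array at a time moved the coefficient between -0.52 and -0.22 and the limma adjusted p between 0.00461 and 1. It passed without the Mt-KO saline array (0.0311), the heterozygous lead array (0.0260) or the heterozygous saline array (0.00461), fits that also called 1129, 1070 and 1011 of all 18194 genes.

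Among themselves the 10 genes did not vary as 1 block. Over the 6 pools, with arrays centred on the median gene, their spans ran between 0.15 for Egr2 and 0.40 for Npas4, with a median of 0.33 against 0.28 for the genes tested and 0.30 for all genes. Of the 45 pairs of genes, 27 had a positive correlation over the 6 pools, and the mean correlation was 0.05, against 0.07 over all genes. For the 6 tested genes alone the mean was 0.11, against 0.02 over the genes tested. The closest pair was Egr1 with Nr4a1 (r = 0.93, n = 6 pools), both highest in the 2 wild-type pools after centring, and Fos with Fosb followed (r = 0.78). At the other end stood Junb with Dusp1 (r = -0.91) and Fos with Npas4 (r = -0.80). These are descriptions over 6 pools, in each of which all genes share the same RNA, array and shift of that array, and no test was made of them.

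The genes whose profile over the pools was most like the mean of the 6 tested genes were Atxn2 (r = 0.96), Ackr1 (r = 0.96), Atxn7l3b (r = 0.95), Baalc (r = 0.94) and Xpr1 (r = 0.93), of 1947 bright genes that spanned at least 0.5 log2 units. The mean profile itself was at -0.06 with lead and -0.02 with saline in Mt-KO brain, at 0.02 and -0.06 in heterozygous brain and at 0.06 and 0.06 in wild-type brain (log2, from each gene's own mean). These genes are the highest of the 1947 searched over 6 pools, and such a search yields high correlations by selection alone. The profile is also nearly flat, and the likeness was not tested.

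**Figure D4:**
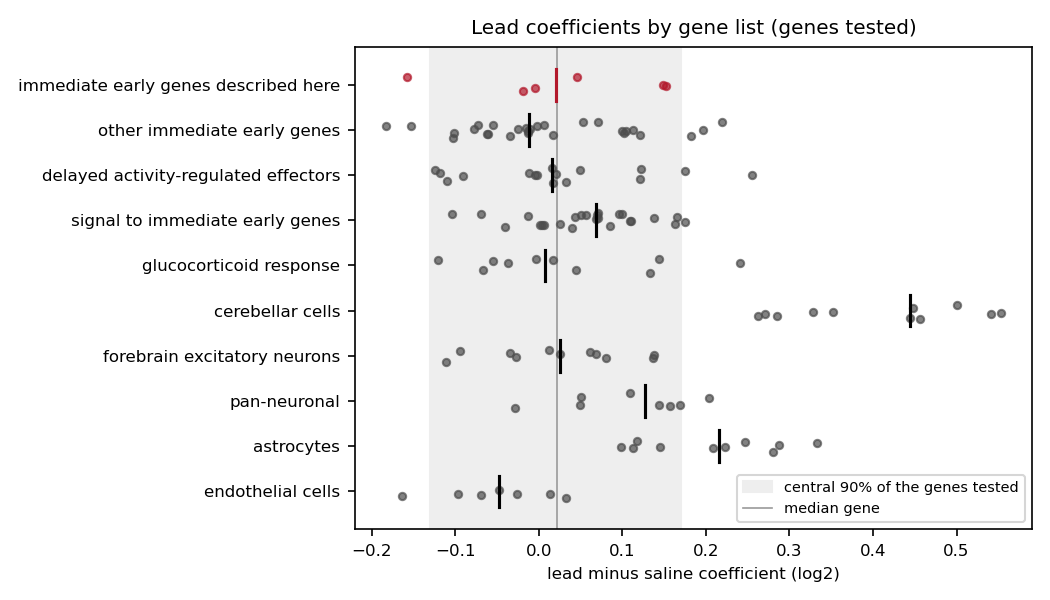
Lead coefficient (lead minus saline, log2, horizontal axis) of each tested gene in the lists named on the vertical axis, with the list's median as a bar, the median gene as a thin line and the central 90% of the genes tested (-0.13 to 0.17) shaded. The immediate early genes lie around the median gene, from -0.16 to 0.15, and all 11 cerebellar genes lie above the shaded range.

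No gene of the wider activity programme passed for lead. Of 40 other immediate early genes, 28 were tested and 0 passed for lead, and 10 of the 28 lay above the median gene. Their median coefficient was -0.03 relative to that of all genes tested, against -0.00 for the 6 genes described here. The largest by t were Zfp36l1, an RNA-decay factor, at 0.22 (95% CI -0.09 to 0.53), Dusp5, a nuclear ERK phosphatase, at 0.20 (95% CI -0.05 to 0.44), and Egr4, the fourth EGR factor, at -0.18 (95% CI -0.41 to 0.04). Of the delayed effectors, genes switched on by these factors, 16 were tested, 0 passed and 6 lay above the median gene. Syt4, a vesicle protein, was at 0.26 (95% CI -0.12 to 0.63), Plat, the tissue plasminogen activator, at 0.18 (95% CI -0.09 to 0.44) and Inhba, an activin subunit, at -0.12 (95% CI -0.35 to 0.11).

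Upstream of the immediate early genes, 25 genes that carry the signal from receptors to the nucleus were tested, 0 passed for lead and 18 lay above the median gene, with a median of 0.05 relative to all genes tested. Examples were Camk2b, a calcium-dependent kinase, at 0.17 (95% CI -0.28 to 0.62), Mrtfa, a coactivator of SRF, at 0.10 (95% CI -0.16 to 0.36), and Elk4, an SRF partner, at -0.10 (95% CI -0.36 to 0.15). Glucocorticoid-responsive genes, which respond to stress hormones, had 10 tested, 0 passed and 4 above the median gene. Sgk1, a kinase induced by glucocorticoids, was at 0.24 (95% CI -0.04 to 0.52), Tsc22d3 at 0.14 (95% CI -0.15 to 0.44) and Fkbp5 at 0.13 (95% CI -0.16 to 0.42). Every gene named from these 4 lists had a limma adjusted p of 1 for lead. In the interaction with allele number, 1 gene of the signalling list, Crebbp, and 1 of the other immediate early genes, Rgs2, passed with lower values per allele, and 0 passed with higher values. That is 1 of 25 and 1 of 28 genes tested, near the 3.77% of all genes tested that passed for this term.

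Marker genes of other cell types were set against the lead comparison in the same way. All 11 tested cerebellar markers lay above the median gene, 2 of them passed as higher, and their median was 0.42 relative to all genes tested, with 0.24, 0.24 and 0.64 in the Mt-KO, heterozygous and wild-type pairs. All 10 astrocyte markers lay above the median gene with 0 passing and a median of 0.19, and 7 of 8 pan-neuronal markers did with a median of 0.10, at 0.12, 0.22 and -0.12 in the Mt-KO, heterozygous and wild-type pairs. So did 6 of 7 microglia markers and 6 of 8 oligodendrocyte markers, with medians of 0.19 and 0.16 and 0 passing in each. Other lists lay lower: 1 of 7 endothelial markers and 1 of 8 markers of pericytes and smooth muscle were above the median gene, with medians of -0.07 and -0.09, and the medians were -0.06 for striatal projection neurons and -0.05 for interneurons, with 0 passing in each. Of 2 pituitary genes tested 1 passed as higher, with a list median of 0.60. The 11 tested markers of forebrain excitatory neurons, the cells in which these genes are classically induced, had a median of 0.00, with 0.15, 0.04 and -0.14 in the Mt-KO, heterozygous and wild-type pairs. The 6 tested genes described here had medians of -0.09, 0.09 and -0.02 in those pairs, and the dim gene Npas4 had 0.09, -0.09 and -0.38. Forebrain excitatory neurons were not the only list that was low in the wild-type pair. Interneuron markers had a median of -0.18 there, and endothelial markers -0.18. The part of cell composition in the values of the 10 genes was not tested.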

How the data were processed

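Per the labels, total RNA of 5 pups was pooled for each of 3 genotypes and 2 treatments and hybridised to 1 array each. The labelling kit that the labels name is one for whole-transcript arrays, whereas the probe sets are those of a 3′ array, and this was not resolved. Each of the 6 arrays was deposited under 3 summaries, giving 18 columns that are not replicates. The submitters' processing notes name Partek, RMA, GCRMA and PLIER. Their versions are not given in the sources used here. As deposited, the RMA and GC-RMA columns hold log2 values, and the PLIER columns hold linear intensities, for which 16 was added before log2 was taken. RMA was the main measure.

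Of 45101 probe sets, 34958 had 1 gene symbol, 932 several and 9211 none, and only those with 1 were used. The brightest probe set stood for each of 18194 genes. Testing covered the 10916 genes (60%) with the highest mean RMA values and used limma 3.58.1 in R 4.3.3, with a trended eBayes prior, two-sided p-values and Benjamini-Hochberg adjustment over all of them at 0.05. The genotype block makes the 3 genotypes serve as replicates of lead. No combination was replicated, so the residual spread is the disagreement of the lead difference between genotypes. It mixes any dependence on genotype with noise and array-wide shifts, and is not a spread between like pools. In the main RMA fits on the genes tested the prior was infinite, so a gene's own spread had no weight there. The prior was finite in the fit on all genes, used for the dim genes, and in some alternatives, such as quantile normalization and GC-RMA. For the tested genes, intervals with each gene's own spread are given beside them. A second fit held the lead by allele number term. Only the lead coefficient of the first fit was tested on simulated data, and the outcome is not given here. Promoters came from RefSeq (GRCm38.p6), and Python 3.11.15 with pandas 2.3.3 was used.

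The genes described, the other lists and the tests were chosen with earlier results of these data known. The named genes are all 10 described, from each of the 4 activity lists any gene called and otherwise the 3 with the largest absolute t for lead, and the 5 with the profile most like the mean of the tested genes. Alternatives were the other summaries, array centring, quantile normalization, other filters, probe set choices and spreads, no block, a linear allele term, other fold limits and leaving out each pair or array. The other summaries and leave-outs for the dim genes without the brightness filter, and the fits with each gene's own spread, were added after seeing the data.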

Additional observations from a re-analysis of the deposited data

Results flagged for a closer look

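The lead difference of 2 genes outside the 10 changed with the number of intact metallothionein alleles in the RMA fit, in which 412 of the 10916 genes tested (3.77%) passed. They are 1 of 28 other immediate early genes tested and 1 of 25 genes of the signalling list, shares near that of all genes. Rgs2, an early-induced regulator of G protein signalling, measured 11.83, 11.94 and 11.33 in the Mt-KO, heterozygous and wild-type lead pools, against 11.51, 11.63 and 11.99 in the saline pools, a coefficient of -0.49 per allele (limma adjusted p = 0.0112). Its limma adjusted p was 0.0504 with no trend, 0.0766 with centred arrays, 0.110 with PLIER, 0.234 after quantile normalization and 0.393 with GC-RMA. Over the mean of its probe sets the coefficient was -0.23 (limma adjusted p = 0.159), and without the wild-type lead array it was -0.13.

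Crebbp, the acetyltransferase that CREB recruits to the promoters of immediate early genes, measured 11.38, 11.29 and 11.12 in the Mt-KO, heterozygous and wild-type lead pools, against 10.75, 11.11 and 11.92 in the saline pools, a coefficient of -0.72 per allele (limma adjusted p = 3.9e-06). It also passed with centred arrays (0.00786) and PLIER (0.00136), and its adjusted p was 0.185 after quantile normalization and 0.289 with GC-RMA. Over the mean of its probe sets the coefficient was -0.22 (limma adjusted p = 0.160), and without the wild-type saline array it was -0.49 (limma adjusted p = 1).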

How the results depend on the processing

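The labels carry no replicate numbers to pair by, and the lead fit already sets 1 lead and 1 saline pool of each genotype against each other. The count of genes called was 0 for lead, Mt-KO, heterozygous and the allele-number term under every setting run with all 6 arrays. All 10 genes were counted with no brightness filter and with the other probe set, and otherwise the 6 tested genes, without Junb and Dusp1 in the upper 40%. Each gene's own spread was not run for the allele-number term. A threshold of 0.10 also gave 0 of the 6 tested genes. In the fit on all genes Npas4 lay under 0.10 for the allele-number term (limma adjusted p = 0.0870). For the leave-outs the count covered the 6 tested genes. With pairs or arrays left out it ranged from 0 to 2 for lead and from 0 to 1 for the allele-number term. Those fits called up to 2632 and 1029 of all genes tested. For Mt-KO and heterozygous, leaving out an array of a compared genotype leaves 1 array in that genotype, so only coefficients are given. Of all genes tested, lead called 13, against 0 with GC-RMA, centred arrays, quantile normalization, no brightness filter, the mean over probe sets, no trend, no block or each gene's own spread, 4 in the upper 40% and 13 with PLIER. Mt-KO called 47, against 0 with GC-RMA or each gene's own spread, 1 after quantile normalization, 4 with no trend, 6 with no filter, 7 with centred arrays or a linear allele term, 10 over the mean of probe sets, 20 in the upper 40% and 68 with PLIER. The heterozygote called 13, against 6 in the upper 40%, 10 with PLIER and 0 with GC-RMA, centring, quantile normalization, no filter, no trend or the mean over probe sets. The allele-number term called 412, with 365 lower, against 0 with GC-RMA, 1 after quantile normalization, 20 with centred arrays (9 lower), 79 with no trend, 92 with no filter, 99 in the upper 40%, 142 with PLIER (91 lower) and 508 over the mean of probe sets (440 lower). Genes past 1.5-fold in a single pair numbered 0 with RMA, 2 with GC-RMA (Egr1 and Npas4) and 3 with RMA at a limit of 0.32 log2 units (Fos, Egr3 and Npas4). The share of all genes was counted for RMA at 1.5-fold only. Genes in 1 direction in all 3 lead pairs numbered 2 with RMA and 1 with GC-RMA (Arc, lower), with PLIER (Dusp1, higher), and with quantile normalization, no brightness filter or the mean over probe sets (Junb, lower), and 3 with the other probe set (Junb lower, Egr2 and Dusp1 higher). The sign of the lead coefficient turned with PLIER for Fosb (-0.0314), Egr1 (0.00654) and Nr4a1 (0.0300), and that of the Egr3 allele-number term with the other probe set (0.16). With pairs or arrays left out, lead coefficients ranged from -0.0328 to 0.104 for Fosb, -0.136 to 0.0759 for Egr1, -0.0385 to 0.0729 for Egr2, -0.0681 to 0.247 for Egr3, -0.249 to 0.123 for Npas4, -0.0881 to 0.0893 for Nr4a1 and -0.156 to 0.0243 for Arc. Mt-KO coefficients ranged from -0.50 to 0.10 for Egr3 and from -0.18 to 0.51 for Npas4, and the heterozygous coefficient of Egr3 from -0.35 to 0.26. The cause of these turns was not tested. Low signal limits Junb, Fosb, Arc and the dimmer Egr3 probe set, which GC-RMA put at 0.57 to 2.90.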
